A study of Homo sapiens with 6 samples.

Results

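The tripartite motif (TRIM) genes encode a large family of ubiquitin ligases, and 52 of them were measured in THP-1 macrophages that had been given oxidised low-density lipoprotein (ox-LDL), with or without loss of the lactate exporter MCT4. A gene was taken as a member when its symbol was TRIM followed by digits alone and when at least 3 of the 6 libraries held at least 10 counts for it. The members were thus chosen by symbol and selected on their counts. Of the 35009 genes of the deposited table, 58 had such a symbol and 52 of these met the count rule. THP-1 is a human monocytic leukaemia line that can be turned into macrophages in culture, and ox-LDL is the modified lipoprotein that loads macrophages with cholesterol in atherosclerosis. The control group held 3 libraries of ox-LDL-treated cells whose genotype the labels give as control. The other group held 3 libraries of ox-LDL-treated cells that the labels call MCT4 deficient and title siMCT4, so both groups shared the cell line and the lipoprotein. The labels give no dose, time or silencing sequence, and they do not say that libraries came from separate cultures, so p-values measure the spread between these libraries, which may be technical.

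A TRIM protein carries, in order, a RING finger that recruits a ubiquitin-conjugating enzyme, B-box zinc fingers and a coiled coil through which the proteins pair, followed by a C-terminal domain that picks the target. The most common C-terminal domain is PRY-SPRY, and others are NHL repeats, a PHD finger with a bromodomain, a COS box that holds microtubules and a membrane anchor. Many members restrict viruses or tune the sensors of foreign nucleic acid in macrophages, and the promoters of several respond to type I interferon. The members were separated into 10 that are known as interferon-induced and 42 others, a split made with earlier results of these data known.

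Total counts ran from 61880619 to 69181938 per library. SLC16A3, which encodes MCT4, had 7708, 6428 and 6848 counts in the control libraries and 691, 768 and 949 in the siMCT4 libraries, a fall that edgeR's quasi-likelihood test put at -3.20 on the log2 scale (SE 0.102, adjusted p = 1.12e-06). The exact two-sided permutation test on the same 6 values gave p = 0.1, the smallest that 3 libraries against 3 allow. All 11 macrophage markers looked for were in the table, with a summed level of 1387 to 1406 FPKM (fragments per kilobase of gene per 1000000 fragments) in controls and 1300 to 1350 in siMCT4. Of these 11 markers, 6 passed as lower, 0 as higher and 5 did not pass. That is a larger share lower than the 20.8% of all genes tested. The sum hides moves both ways in mean FPKM. CSF1R went from 300.6 in controls to 177.3 in siMCT4 and CD14 from 6.75 to 1.82. CD68 went from 380.8 to 431.6 and ITGAX from 189.5 to 220.3. The summed level of the B cell markers found, 4 of 5 listed, was 0.687 to 0.857 FPKM in controls and 2.48 to 2.95 in siMCT4, and that of the fibroblast markers found, 5 of 6 listed, was 0.527 to 0.75 and 0.839 to 3.20 FPKM. Epithelial markers, 5 of 5 listed, summed to 0.0174 to 0.0459 FPKM in controls and 0.0317 to 1.19 in siMCT4. Endothelial markers, 4 of 5 listed, summed to 0.123 to 0.252 FPKM in controls and 0.0978 to 0.189 in siMCT4, and of 5 T cell markers CD8A alone was in the table, at 0 in controls and at most 0.013 FPKM in siMCT4. The part of these markers in the results on TRIM genes was not tested. In bulk RNA, fewer cells of a type and less RNA per cell cannot be told apart. The siMCT4 library 3 stood apart in GC-rich genes: over 384 genes of at least 64% GC the median log2 ratio of the library to the mean control was -0.22, against -0.95 and -1.05 in siMCT4 libraries 1 and 2.

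Of the 49 members that could be tested, 16 were higher and 8 lower in siMCT4 than in controls (edgeR, adjusted p under 0.05 over 19944 genes), and 25 did not pass. A large part of all genes differed between the groups: 41.4% of those tested were called in either direction, 20.6% higher and 20.8% lower. Of the members 49% were called, 32.7% higher and 16.3% lower. Any effect of the silencing procedure apart from the loss of MCT4 was not tested. The members' median log2 change was 0.10, against -0.00637 over all genes. All 10 interferon-induced members were called, 8 higher and 2 lower, with a median log2 change of 0.84. A wider list that adds TRIM6, TRIM31, TRIM35 and TRIM58 had 12 tested members, of which 9 rose, 2 fell and TRIM58 did not pass, with a median of 0.75. Of the 39 other members tested, 8 rose, 6 fell and 25 did not pass, so 35.9% were called. The share over all genes was 41.4%, and the difference was not tested. The median log2 change of these other members was 0.08.

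The CPM (counts per 1000000 after TMM scaling) of the 2 groups did not overlap for 19 members that were higher and 8 that were lower, against 27.2% and 27.8% of all genes tested and 55% in either direction. At least 2-fold and called were 4 members that rose, namely TRIM22, TRIM69, TRIM5 and TRIM34, and 1 that fell, TRIM2. Over all genes tested, 6.36% were called and at least 2-fold higher and 6.71% at least 2-fold lower. The count of other members called higher moved when single libraries were left out: it was 5 without control library 1, 3 without control library 2, 5 without control library 3 and 5 without siMCT4 library 2. Without siMCT4 library 2, 5 members in all were called lower in place of 8. The scale also moved the split, since limma on log2(FPKM + 1) called 19 members higher and 5 lower, and limma on log2(TPM + 1) called 23 and 4. On that TPM scale, FPKM rescaled to 1000000 per library, the median of all genes itself stood at 0.124.

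**Figure D1:**
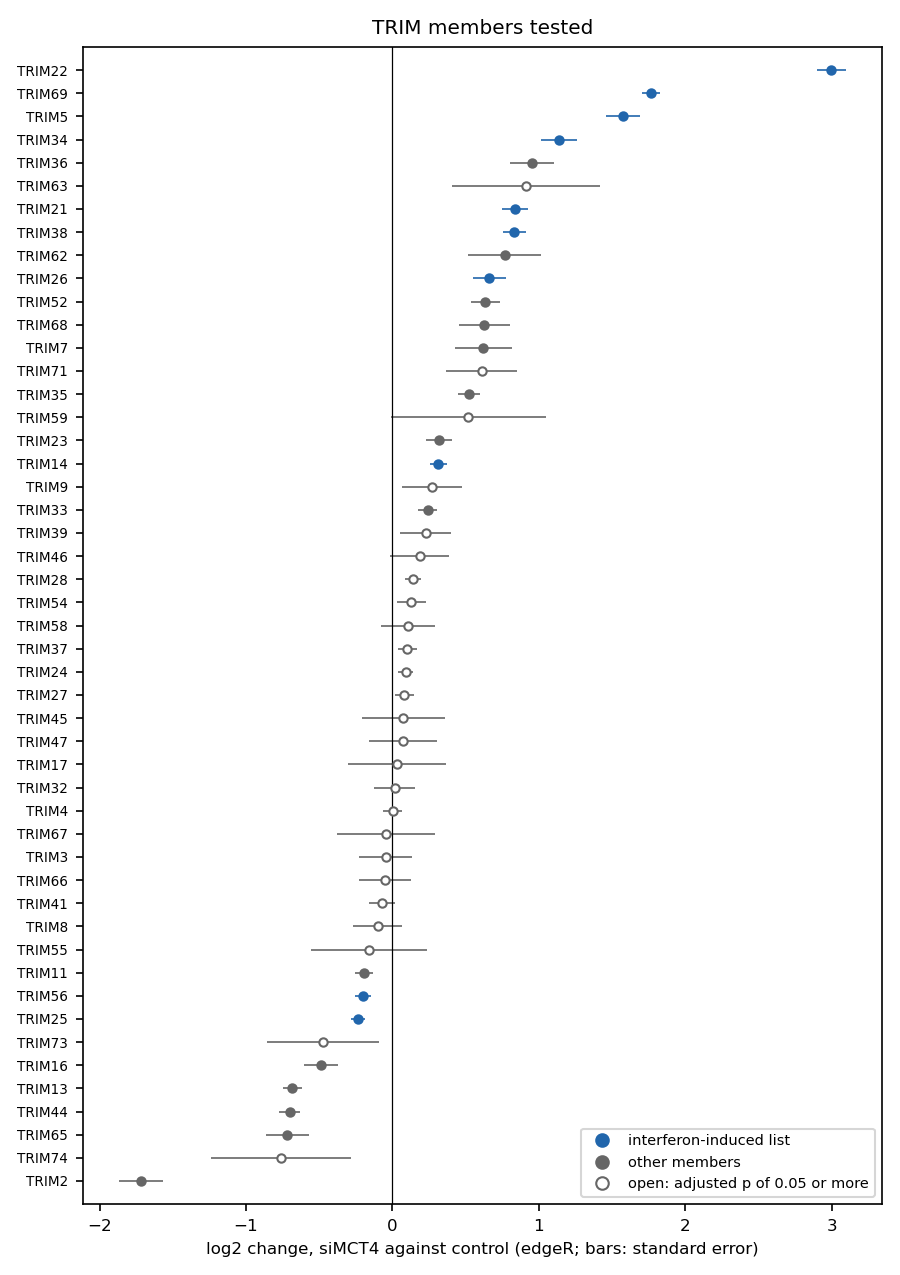
Log2 change of each of the 49 tested members, siMCT4 against control, from edgeR on counts of 3 libraries per group, with bars for the standard error. Blue points are the interferon-induced list and grey points the other members, and open points did not pass an adjusted p of 0.05. The blue points run from -0.23 for TRIM25 to 3.00 for TRIM22, and TRIM2 is the lowest of the grey points at -1.72.

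The promoters are shown because the response to type I interferon runs through a short element, the interferon-stimulated response element. RefSeq promoters (GRCh38.p14, 250 bases before to 50 after a start) were found for 41 of the 52 members. The core of the element was searched on both strands as GAAA, any 2 bases and GAAA again, which on the opposite strand reads as TTTC, any 2 bases and TTTC. It was present in 3.57% of 35116 promoters. The interferon-induced genes had it in 6 of 10 promoters (60%) and the others in 3 of 49 (6.12%). By gene, at least 1 promoter held it in 6 of the 9 interferon-induced genes with an entry, TRIM5, TRIM14, TRIM21, TRIM26, TRIM34 and TRIM69, all called higher. It was also in 3 of the 32 other genes with an entry, TRIM2, TRIM16 and TRIM44, all called lower. TRIM38 rose without a match, and TRIM25 and TRIM56 had none either. The list was made of genes known as interferon-induced, so its share is no support from these data. The part of the core in the changes was not tested. The interferon gamma activated site, searched as TTCNNNGAA, was present in 7.66% of all promoters. It was in 0 of 10 promoters of the interferon-induced genes and in 7 of 49 of the others (14.3%). By gene it was in 0 of the 9 interferon-induced genes and in 5 of the 32 others, TRIM2, TRIM3, TRIM7, TRIM16 and TRIM46. Both motifs can share bases, and a match describes letters and no binding. TRIM22 had no entry. The 4 stretches below belong to the interferon-induced members with an entry that had the largest log2 rises, read 5′ to 3′ on the gene's own strand with the core in capitals.
TRIM69, chr15:44736378-44736527, plus strand, the 150 bases before the start: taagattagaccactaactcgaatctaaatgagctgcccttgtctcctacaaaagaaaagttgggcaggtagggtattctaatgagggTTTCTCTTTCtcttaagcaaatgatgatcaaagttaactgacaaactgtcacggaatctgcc
TRIM5, chr11:5685075-5685224, minus strand, the 150 bases before the start: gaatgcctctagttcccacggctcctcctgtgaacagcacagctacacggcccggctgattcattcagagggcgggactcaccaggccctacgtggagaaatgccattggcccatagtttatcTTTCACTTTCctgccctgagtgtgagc
TRIM34, chr11:5624851-5625000, plus strand, the 150 bases before the start: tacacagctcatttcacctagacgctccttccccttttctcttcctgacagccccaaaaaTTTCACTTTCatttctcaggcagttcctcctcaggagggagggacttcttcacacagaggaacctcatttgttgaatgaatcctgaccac
TRIM21, chr11:4393663-4393692, minus strand, bases 11 to 40 after the start: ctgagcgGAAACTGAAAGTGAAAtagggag
The core lay from -62 to -53 in TRIM69, from -27 to -18 in TRIM5 and from -90 to -81 in TRIM34, counted from the start, and TRIM34 has another start whose promoter held no match. In TRIM21 the capitals are overlapping matches, from 18 to 33 after the start. TRIM69, TRIM5 and TRIM34 share the orientation TTTC, and TRIM5 and TRIM34 share the 10 letters of the core in full. The TRIM21 match that begins at 24 holds the same letters in the opposite orientation.

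The largest rise among the tested members was that of TRIM22, an interferon-induced restriction factor of the nucleus that holds down retroviral transcription. TRIM22 (chromosome 11, 5689610 to 5737089, plus strand of GRCh38) was at 4.61, 4.85 and 5.32 CPM in the control libraries and at 38.1, 43.0 and 36.9 CPM in the siMCT4 libraries. Its mean rose 7.99-fold, from 4.93 ± 0.361 to 39.3 ± 3.25 CPM (SD, n = 3 each), and the log2 change was 3.00 (SE 0.0979, adjusted p = 1.26e-06). The lowest siMCT4 library of TRIM22 lay far above its highest control library, and the difference exceeded the spread of either group. Per length, TRIM22 went from rank 38 to rank 22 among the 52 members, at 0.347 FPKM in controls and 3.02 FPKM in siMCT4.

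TRIM69, a ligase that holds microtubules and restricts vesicular stomatitis virus, came next. TRIM69 (chromosome 15, 44728988 to 44767829, plus strand) had 23.8, 25.7 and 24.4 CPM in controls and 86.8, 85.6 and 79.5 CPM in siMCT4. Its log2 change was 1.77 (SE 0.0606, adjusted p = 1.54e-06). The groups of TRIM69 did not overlap, and the 3 values of each lay close together. Its level per length of 2.38 FPKM in controls and 8.75 FPKM in siMCT4 moved it from rank 20 to rank 10.

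TRIM5 and TRIM34 are antiviral genes of 1 cluster on chromosome 11, where TRIM6, TRIM34, TRIM5 and TRIM22 follow each other. TRIM5 recognises the capsid of incoming retroviruses. It had 7.09, 6.65 and 8.52 CPM in controls and 23.5, 22.2 and 20.6 CPM in siMCT4, a log2 change of 1.57 (SE 0.118, adjusted p = 5.3e-05). TRIM34, which can act together with TRIM5 at the capsid, had 5.03, 5.93 and 5.40 CPM in controls and 13.2, 11.9 and 10.9 CPM in siMCT4, a log2 change of 1.14 (SE 0.125, adjusted p = 0.000336). For both genes every siMCT4 library was above every control library. TRIM6, a PRY-SPRY ligase that makes free ubiquitin chains in interferon signalling, was counted 17, 3 and 7 times in the control libraries and 38, 30 and 26 times in siMCT4. TRIM6 was not tested because under 3 control libraries reached the 10 counts of the member rule. TRIM34 begins 6806 bases after the end of TRIM6 and lies 18797 bases from TRIM5. TRIM5 (5663195 to 5872358, minus strand) spans all 47480 bases of TRIM22 on the opposite strand, and the strand setting of the counting is not given in the sources used here, so reads of shared exonic bases of the 2 genes cannot be told apart.

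TRIM21, TRIM38 and TRIM26 rose by less than 2-fold. TRIM21 is the cytosolic receptor for antibody that coats viruses and is also known as the Ro52 autoantigen. It was at 15.0, 15.9 and 16.9 CPM in controls and 27.8, 31.2 and 26.5 CPM in siMCT4, a log2 change of 0.84 (SE 0.0892, adjusted p = 0.000288). TRIM38, a negative regulator of Toll-like receptor signalling, was at 26.6, 22.8 and 24.5 CPM against 42.3, 46.3 and 43.1 CPM, with a log2 change of 0.83 (SE 0.0766, adjusted p = 0.000141). TRIM26, a ligase encoded in the major histocompatibility region, was at 19.8, 22.1 and 20.1 CPM against 36.5, 33.8 and 27.6 CPM, with a log2 change of 0.66 (SE 0.112, adjusted p = 0.00277). The siMCT4 library 3 gave the lowest siMCT4 value of TRIM21 and TRIM26, as it did for TRIM22, TRIM69, TRIM5 and TRIM34, and still lay above all controls. For TRIM38 the lowest was siMCT4 library 1, and for TRIM14 siMCT4 library 2.

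TRIM14 rose least among the interferon-induced members that were higher. This member has no RING finger and serves as an adaptor of the mitochondrial antiviral protein MAVS. TRIM14 was at 68.96, 65.5 and 63.7 CPM in controls and 80.9, 78.2 and 86.9 CPM in siMCT4, a log2 change of 0.31 (SE 0.0589, adjusted p = 0.00446). Its gene shares 13803 bases with NANS on the opposite strand. The calls of TRIM5, TRIM14, TRIM21, TRIM22, TRIM26, TRIM34, TRIM38 and TRIM69 held under each of the 17 alternative settings run.

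TRIM25 and TRIM56 were the 2 interferon-induced members called lower, each by less than the smallest of the 8 rises. TRIM25 is a cofactor of the RNA sensor RIG-I and of the zinc-finger antiviral protein. It had 160.5, 173 and 160.3 CPM in controls and 141, 143 and 136 CPM in siMCT4, a log2 change of -0.23 (SE 0.0485, adjusted p = 0.00678). TRIM56, an RNA-binding antiviral ligase, had 125, 129 and 139 CPM against 117, 111 and 114 CPM, with a log2 change of -0.20 (SE 0.0538, adjusted p = 0.0203). Neither pair of groups overlapped. The fall of TRIM25 did not pass in limma on log2(FPKM + 1) (adjusted p = 0.115). The fall of TRIM56 did not pass without control library 2, control library 3, siMCT4 library 1 or siMCT4 library 2 (adjusted p of 0.0561, 0.0597, 0.0591 and 0.109), and on the TPM scale its log2 change was 0.000933. TRIM25 shares 29690 bases with DGKE on the opposite strand.

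**Figure D2:**
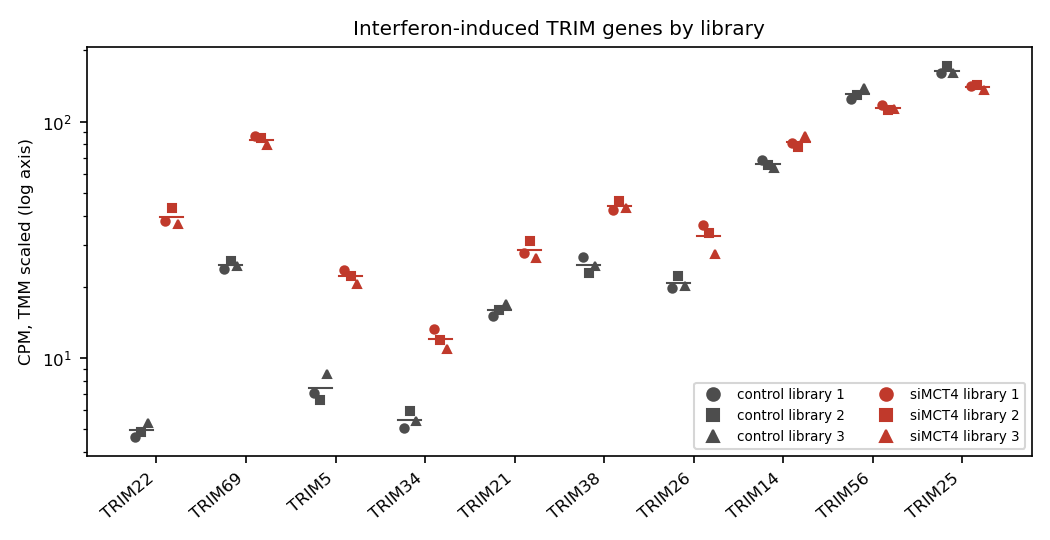
CPM after TMM scaling, on a log axis, of the 10 interferon-induced members in each of the 6 libraries, with grey for control and red for siMCT4, a marker shape for each library and a short line at each group's mean. TRIM22 shows the widest gap, from 4.93 to 39.3 CPM on average, and TRIM25 and TRIM56 at the right show the siMCT4 points below the control points.

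TRIM31, a ligase that acts on MAVS and on the NLRP3 inflammasome and that lies 71365 bases from TRIM26 on chromosome 6, was detected in siMCT4 libraries only. It had 0 counts in each control library and 57, 114 and 117 counts in the siMCT4 libraries. Set against an assumed floor of 3 counts over the control group, the level was 91.2-fold higher. If both mates of a pair were counted, as the excess of even counts may show, the floor is 6 counts. The level was then 45.6-fold higher. Both ratios take the siMCT4 counts as observed, with no allowance for their spread, so neither is a strict lower bound. TRIM31 met the member rule through the siMCT4 libraries alone, so no test is given for it. TRIM72, a membrane-repair protein of muscle, was counted in every library, 45, 34 and 41 times in the controls and 6, 22 and 22 times in siMCT4. TRIM72 was not tested either, because under 3 siMCT4 libraries reached 10 counts.

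Among the members outside the list of 10, TRIM36 had the largest rise that passed. TRIM36 is a COS-box ligase of microtubules, and it was at 2.79, 2.39 and 2.90 CPM in controls and 4.87, 5.57 and 5.23 CPM in siMCT4 (log2 change 0.95, SE 0.152, adjusted p = 0.002). TRIM52, a short member with a RING finger and a B-box and no C-terminal domain, was at 15.6, 13.9 and 17.1 CPM against 25.1, 25.1 and 22.1 CPM (log2 change 0.63, SE 0.1, adjusted p = 0.00196). TRIM35, a PRY-SPRY ligase known to promote apoptosis and a gene of the wider interferon-induced list, was at 46.9, 44.3 and 41.5 CPM against 60.0, 61.8 and 69.1 CPM (log2 change 0.52, SE 0.0751, adjusted p = 0.0012). For these 3 genes the groups were apart, and their calls held under each of the 17 alternatives.

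The other 5 rises lost the call when some single libraries were left out, which also leaves fewer samples for the test. TRIM62 had 1.25, 1.64 and 1.28 CPM in controls and 2.68, 1.68 and 2.75 CPM in siMCT4 (log2 change 0.77, adjusted p = 0.0438), so that siMCT4 library 2 was close to control library 2. Without control library 1, 2 or 3 the adjusted p of TRIM62 was 0.128, 0.0590 and 0.131, and without siMCT4 library 1 or 3 it was 0.118 and 0.0787, at log2 changes from 0.67 to 0.91. TRIM68, a coactivator of the androgen receptor, had 4.10, 3.65 and 3.28 CPM against 4.92, 6.76 and 5.36 CPM (log2 change 0.63, adjusted p = 0.0248). These groups did not overlap either, but the adjusted p was 0.0743 without control library 2, 0.0842 without control library 3 and 0.0717 without siMCT4 library 2, at log2 changes of 0.63, 0.55 and 0.51. TRIM7, which binds glycogenin and the C-terminal ends of viral proteins, had 1.19, 1.06 and 1.44 CPM against 1.83, 1.99 and 1.88 CPM (log2 change 0.62, adjusted p = 0.0395). Its call was lost without control library 1 or 2 (adjusted p of 0.0980 and 0.113) and without siMCT4 library 1, 2 or 3 (0.0747, 0.0947 and 0.0511), at log2 changes from 0.54 to 0.67. TRIM23, which carries an ARF GTPase domain in place of PRY-SPRY, had 18.1, 15.2 and 18.0 CPM against 20.9, 21.6 and 21.4 CPM (log2 change 0.32, adjusted p = 0.0241), with 0.0715 without control library 2 (log2 change 0.25) and 0.0572 without siMCT4 library 2 (log2 change 0.33). TRIM33 is described below with its relatives.

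TRIM2 fell most. It is an NHL-repeat ligase of the neurofilament light chain, and it was at 7.12, 7.50 and 6.75 CPM in controls and 2.13, 2.42 and 1.95 CPM in siMCT4. Its mean went from 7.12 ± 0.375 to 2.16 ± 0.237 CPM (SD, n = 3 each), a log2 change of -1.72 (SE 0.149, adjusted p = 0.000106). The groups were well apart. An unnamed gene on the same strand shares 186883 bases with TRIM2 and went from 173 to 24 counts summed over the group, so the split of reads between them is uncertain.

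TRIM13 and TRIM44 fell by similar amounts. TRIM13 sits in the endoplasmic reticulum membrane and serves in the degradation of misfolded proteins, and it was at 58.2, 62.7 and 64.6 CPM in controls and 38.2, 36.7 and 40.6 CPM in siMCT4 (log2 change -0.68, SE 0.0649, adjusted p = 0.000165). TRIM44, which has a ubiquitin-protease type zinc finger in place of the RING, was at 45.3, 44.6 and 39.8 CPM against 27.4, 26.4 and 25.9 CPM (log2 change -0.70, SE 0.0696, adjusted p = 0.000201). TRIM65, a ligase of the RNA sensor MDA5, was at 12.1, 13.6 and 13.6 CPM against 7.50, 6.82 and 9.56 CPM (log2 change -0.72, SE 0.146, adjusted p = 0.0064). The calls of TRIM2, TRIM13 and TRIM44 held under each of the 17 alternatives, and that of TRIM65 under 16. The exception for TRIM65 set siMCT4 library 3 alone against the controls (log2 change -0.43, adjusted p = 0.0673), a fit in which the control libraries alone give the spread.

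TRIM16 and TRIM11 fell by less. TRIM16, a member without RING that marks damaged lysosomes, was at 13.5, 13.9 and 14.6 CPM in controls and 11.3, 9.64 and 8.94 CPM in siMCT4 (log2 change -0.49, adjusted p = 0.0115). Its adjusted p was 0.0516 without siMCT4 library 2. Its reads may be split with the near-identical copy TRIM16L. An unnamed gene on the same strand shares 23694 bases with TRIM16 and went from 161 to 984 counts summed over the group, so the split of reads between these genes is uncertain too. TRIM11 was at 27.8, 30.4 and 29.2 CPM against 25.9, 25.1 and 25.3 CPM (log2 change -0.19, adjusted p = 0.0437). The call of TRIM11 held in 1 of the 17 alternatives. In 15 it was lost with the direction kept. These include each of the 6 that left out 1 library, where the adjusted p ran from 0.0694 to 0.172. In limma on log2(TPM + 1) the sign changed and the call was lost too (adjusted p = 0.942).

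Among the 4 members with a PHD finger and a bromodomain, TRIM28 is the corepressor that KRAB zinc-finger proteins bring to transposable elements. TRIM33, a regulator of SMAD signalling, was the 1 member of this set that passed. It was at 231, 228 and 232 CPM in controls and 261, 256 and 298 CPM in siMCT4 (log2 change 0.24, SE 0.0622, adjusted p = 0.0179), and the adjusted p was 0.0558, 0.0736 and 0.0647 without control library 1, 2 and 3, where the log2 change was as large (0.26, 0.24 and 0.24). TRIM28 was at 108, 108 and 110.3 CPM against 122, 126 and 112 CPM (log2 change 0.14, adjusted p = 0.0744). The TRIM28 groups did not overlap, but siMCT4 library 3 was close to the controls. TRIM28 has a GC content of 63.7%, and it passed as higher with a correction for GC content (log2 change 0.69, adjusted p = 0.00948) and without siMCT4 library 3 (0.22, adjusted p = 0.00228). TRIM24, a nuclear receptor cofactor, stood at 0.09 (adjusted p = 0.186) on the log2 scale, and TRIM66, found mainly in germ cells, had -0.05 (adjusted p = 0.841).

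Of the NHL-repeat members, TRIM2 was the 1 that passed. TRIM71, a stem cell factor and target of the let-7 miRNAs, was at 1.16, 0.955 and 0.776 CPM in controls and 1.61, 1.58 and 1.23 CPM in siMCT4 (log2 change 0.61, adjusted p = 0.084), and it passed without siMCT4 library 3 (0.75, adjusted p = 0.0486). The log2 change was -0.05 for TRIM3 (adjusted p = 0.863) and 0.01 for TRIM32, a gene mutated in limb-girdle muscular dystrophy (adjusted p = 0.948). Of the 7 COS-box members, TRIM36 passed. The others were the neuronal genes TRIM9 (0.27, adjusted p = 0.336), TRIM46 (0.18, adjusted p = 0.503) and TRIM67 (-0.04, adjusted p = 0.931), and the muscle RING-finger genes TRIM54 (0.13, adjusted p = 0.344), TRIM55 (-0.16, adjusted p = 0.78) and TRIM63 (0.91, adjusted p = 0.192). TRIM54 is known from striated muscle and was among the most abundant members here, with 54.0, 57.1 and 61.8 CPM in controls and 68.2, 67.1 and 53.9 CPM in siMCT4. The value of TRIM54 in siMCT4 library 3 was the lowest of the 6, and without that library its log2 change was 0.26 (adjusted p = 0.0111).

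By domain list, 23 members listed under PRY-SPRY were tested, of which 12 rose, 4 fell and 7 did not pass. Of all genes tested, 20.6% were called higher and 20.8% lower. The COS-box members, TRIM36 among them, were listed apart, so any PRY-SPRY domain of theirs was not counted. Of the 10 interferon-induced members 9 are on the PRY-SPRY list, TRIM56 being the exception. Of the 14 other members on that list 4 rose, 3 fell and 7 did not pass. Of the 25 other members outside it 4 rose, 3 fell and 18 did not pass, so 28% were called. The share over all genes was 41.4%, and the difference was not tested. The 4 members without RING gave 1 rise, 2 falls and 1 that did not pass.

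Some members that did not pass were uneven between libraries. TRIM59, a membrane-anchored ligase whose gene overlaps SMC4, had 127 counts in control library 1 against 708 and 578 in the other controls, and 663, 734 and 762 in siMCT4. Its log2 change was 0.52 (SE 0.53, adjusted p = 0.476) with all libraries and 0.07 (adjusted p = 0.715) without control library 1. TRIM8, a regulator of cytokine signalling, had 41.2, 33.4 and 34.4 CPM in controls and 29.4, 28.98 and 43.3 CPM in siMCT4 (log2 change -0.10, adjusted p = 0.673), so that siMCT4 library 3 was the highest of all 6. Over the 41 members with a mean of at least 100 counts, GC content and the gap of siMCT4 library 3 to libraries 1 and 2 (log2) had Pearson's r of 0.14 and Spearman's rho of 0.02, a description across genes that share the same 6 libraries.

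**Figure D3:**
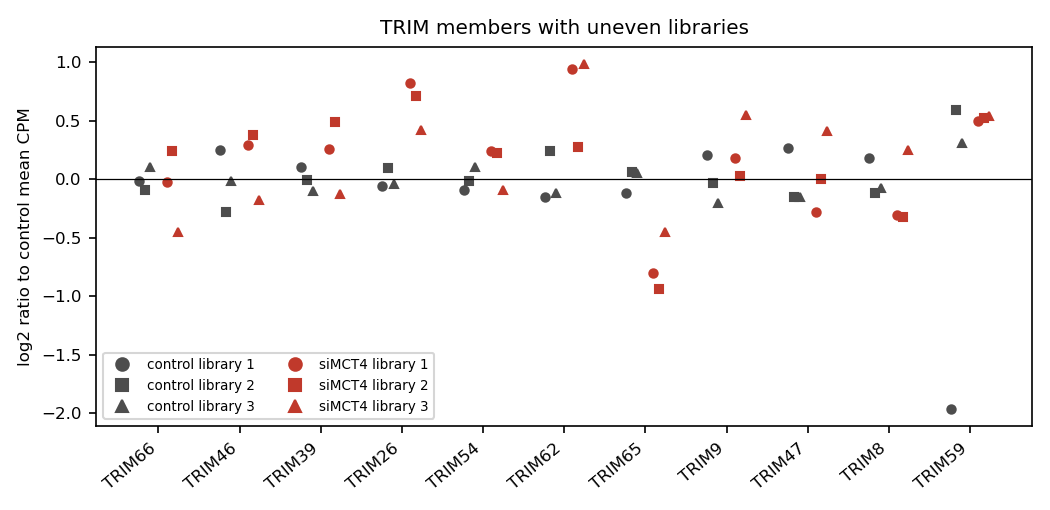
Log2 ratio of each library's CPM to the control mean for the 10 members with the largest gap between siMCT4 library 3 and siMCT4 libraries 1 and 2 among those with a mean of at least 100 counts, and for TRIM59, with grey for control, red for siMCT4 and a marker shape for each library. In TRIM8 the triangle of siMCT4 library 3 lies above the other siMCT4 points, in TRIM54 below them, and in TRIM59 the circle of control library 1 lies far below all others.

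The other members that did not pass spanned log2 changes from -0.76 for TRIM74 (adjusted p = 0.246) to 0.23 for TRIM39 (adjusted p = 0.341). TRIM73 and TRIM74 are near-identical copies whose reads cannot be told apart with certainty, and TRIM73 had -0.47 (adjusted p = 0.36). TRIM27, a nuclear-body ligase, had 0.08 (adjusted p = 0.35), and TRIM37, the peroxisome and centriole ligase with a MATH domain, had 0.10 (adjusted p = 0.236). A p that misses the threshold does not show that these genes were equal in the groups.

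Per length, which allows genes to be compared, 3 members led in both groups. In controls TRIM28 was at 22.6 ± 0.135 FPKM, TRIM33 at 21.5 ± 0.0689 and TRIM54 at 18.9 ± 1.20 (SD, n = 3 each). The control ranges of these 3 did not overlap, at 22.4 to 22.7, 21.4 to 21.5 and 17.7 to 20.1 FPKM. TRIM25 followed at 11.4 to 12.6 FPKM, above TRIM14 and TRIM56, whose ranges overlapped each other. In siMCT4 TRIM33 stood at 27.3 ± 2.21 FPKM and TRIM28 at 26.9 ± 1.69, a difference within their spread. Of the 52 members, 6 had at least 10 FPKM in controls and 23 were under 1 FPKM. The summed level of the 10 interferon-induced members was 52.9 ± 1.16 FPKM in controls and 81.2 ± 2.79 in siMCT4. That of the 42 others was 138 ± 0.942 and 160.1 ± 1.11. FPKM stood higher in siMCT4 than counts did, so these sums overstate the rise in CPM. TRIM4 went from 5.55 to 5.99 mean FPKM at an edgeR log2 change of 0.000218. The median log2 change of the 39 other members tested was 0.188 with limma on log2(FPKM + 0.1), against 0.0815 with edgeR. The share of the scale in the summed rises was not tested.

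**Figure D4:**
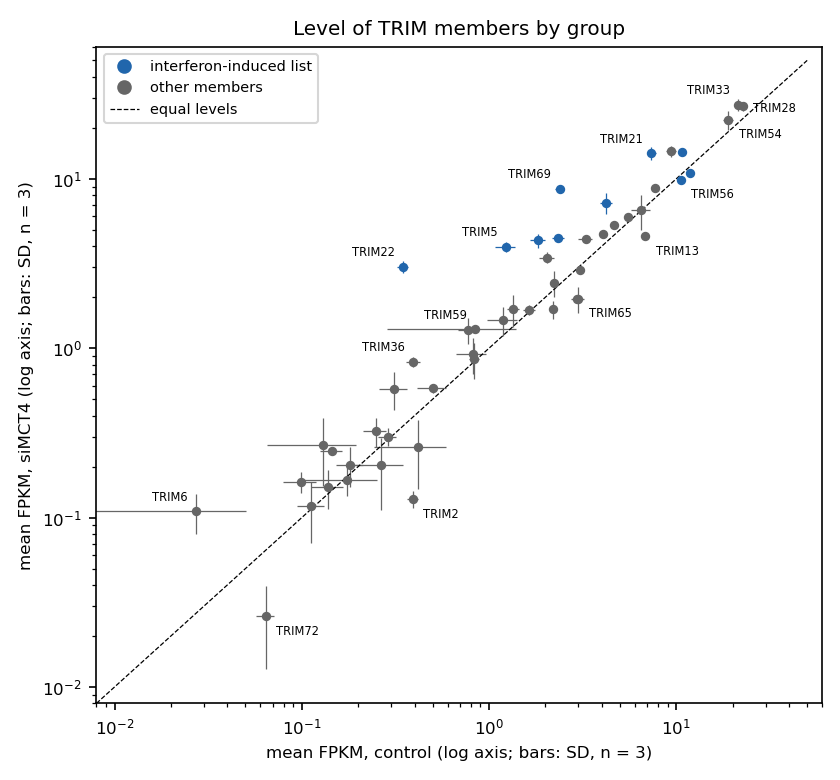
Mean FPKM of the members in siMCT4 against control on log axes, with bars for the SD over 3 libraries, blue for the interferon-induced list and grey for the others, and a dashed line where levels are equal. TRIM22, TRIM69 and TRIM5 lie far above the line and TRIM2 below it. The median log2 change of all genes was 0.0802 with limma on log2(FPKM + 0.1), so a point slightly above the line need not mark a rise in CPM. TRIM31 is not drawn because its control counts were 0.

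At the edge of the count rule, the libraries were ordered by count and the value of rank 3 was read. The members with the lowest such value were TRIM6 (26), TRIM72 (34) and TRIM63 (38). Of the symbols outside the rule, TRIM29 was counted 5, 9 and 0 times in the control libraries and 16, 4 and 29 times in siMCT4. TRIM75 had 4 counts in a single control and 10 in a single siMCT4 library, and TRIM50 had 11 counts in 1 control library and 0 elsewhere. TRIM10, TRIM42 and TRIM60 were the others outside.

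Relatives with other symbols and the partners of the pathway were read from lists. Of 6 relatives tested 1 rose, 1 fell and 4 did not pass. PML, the TRIM protein that builds nuclear bodies and is itself interferon-induced, rose from 46.1, 43.9 and 42.0 CPM to 64.2, 61.1 and 98.5 CPM (log2 change 0.76, SE 0.175, adjusted p = 0.0109, and 0.0527 without control library 3). MEFV, which encodes pyrin, fell by 0.52 on the log2 scale (adjusted p = 0.0391), a call lost in 13 of the 17 alternatives. Of 15 ubiquitin-conjugating partners 7 rose, 3 fell and 5 did not pass, where 41.4% of all genes tested were called, 20.6% higher and 20.8% lower. UBE2L6, the interferon-induced conjugating enzyme of ISG15, rose by 0.65 on the log2 scale (adjusted p = 0.000333). UBE2W, which primes chains on TRIM5 and TRIM21, rose by 0.46 (adjusted p = 0.000353), and UBE2N by 0.42 (adjusted p = 0.00153). UBE2D3 had 0.09 (adjusted p = 0.317).

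Of 20 genes of interferon signalling and nucleic acid sensing tested, 11 rose, 3 fell and 6 did not pass, with a median log2 change of 0.26, against the same shares of 20.6% higher and 20.8% lower over all genes. DDX58, the gene of the RIG-I sensor that TRIM25 serves, rose by 2.51 (adjusted p = 3.91e-07), and IFIH1, the gene of the MDA5 sensor that TRIM65 modifies, rose by 2.17 (adjusted p = 1.92e-07). STING1, the adaptor of cytosolic DNA sensing, fell by 1.94 (adjusted p = 1.47e-05). Of 9 partners of TRIM28 in repression 2 rose, 3 fell and 4 did not pass, again beside 20.6% and 20.8%. ATF7IP had 0.37 (adjusted p = 0.00137), and CBX5, a heterochromatin protein, -0.47 (adjusted p = 0.000167). SETDB1, the histone methyltransferase, had -0.23 (adjusted p = 0.0423), a call lost in 13 of 17 alternatives, among them every fit that left out a single library.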

How the data were processed

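The labels' protocols describe 6 poly(A) libraries made with a preparation that marks strand. Trimming and alignment used cutadapt 1.9, HISAT2 2.2.1 and GRCh38, per the submitters' processing notes. Which counter, annotation and strand option the authors used is not given in the sources used here. The authors' counts and FPKM stand side by side in 12 measurement columns, per the file headers, of which 0 went unused. Among counts from 2 to 41, 58.7% to 60.9% were even, so 2 counts may stand for 1 fragment. Total counts were 69181938, 65880212 and 65010219 in control libraries 1 to 3 and 61880619, 67486614 and 69103124 in siMCT4 libraries 1 to 3.

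edgeR 4.0.16 (R 4.3.3) was run on all genes passing filterByExpr (smallest count 10, smallest total 15, 19944 genes), with TMM scaling, the quasi-likelihood test with group as the sole factor, two-sided, and Benjamini-Hochberg adjustment; calls are at an adjusted p under 0.05. The common biological coefficient of variation was 0.219. Alternatives used DESeq2 1.42.0, limma 3.58.1 on log2 FPKM or TPM, other filters and scalings, a GC correction, a replicate block, and each library left out.

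The members and lists were chosen with earlier results of these data known, among them a rise of interferon-induced genes, so that rise is not independent support. Named genes were SLC16A3, the interferon-induced list, up to 8 other members with the largest rise and 8 with the largest fall among those called with groups apart, the members of the small domain lists, the genes at the edge of the count rule, the tested relatives, and of each pathway list up to 4 called genes of smallest adjusted p and up to 2 not called of highest FPKM; the text gives a part of these, and other members by their values.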

Additional observations from a re-analysis of the deposited data

How the results depend on the processing

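The 3 libraries per group, with a common coefficient of variation of 0.219, limit what could be detected among weakly counted members. The 8 interferon-induced rises kept their call in all 17 alternatives. Interferon-induced members called lower numbered 1 to 2 when 1 library was left out, 1 with siMCT4 library 3 alone (chosen after seeing the data), and 0 in limma on log2(FPKM + 0.1), log2(FPKM + 1) and log2(TPM + 1), where 0 had an unadjusted p under 0.05 either and edgeR and DESeq2 called 2. Members called lower in all numbered 5 in limma with either FPKM scale, 4 with TPM, 5 with siMCT4 library 3 alone and 5 to 8 with 1 library left out. Other members called higher numbered 15 with TPM, 5 with siMCT4 library 3 alone, and 3 to 10 with 1 library left out; all genes called higher numbered 6245 with TPM, beside 2886 lower.

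Replicate numbers did not pair the libraries: deviations of same-numbered libraries correlated at -0.10, 0.07 and -0.15. With the replicate number as a block, 12 members were called higher and 6 lower, with 1 interferon-induced member lower and 4 other members higher; with the block and the GC correction, 1 and 5.

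Of 1033 gene and alternative pairs over 61 named genes, 871 kept direction and call. With the direction kept, 97 lost and 30 gained the call. A further 35 changed sign, and none of these passed after the change. Among the 35 were TRIM11 and TRIM56 with TPM, which thereby lost their call as well. The cause was not tested. With TPM the log2 changes that reversed were TRIM56 0.000933, TRIM11 0.00763, TRIM66 0.10, TRIM3 0.0838, TRIM55 0.0225, TRIM67 0.0416, CBX3 0.065 and CBX1 0.0945. With FPKM + 0.1 they were TRIM66 0.0289, TRIM3 0.0448, TRIM67 0.0128 and CBX1 0.00424, and with FPKM + 1 TRIM66 0.0202, TRIM3 0.0137, TRIM67 0.00546 and CBX1 0.00407. With 1 library left out, log2 changes that reversed in at least 1 case ran from -0.20 to 0.14 for TRIM66, -0.10 to 0.0643 for TRIM3, -0.11 to 0.14 for TRIM32, -0.43 to 0.19 for TRIM55, -0.30 to 0.25 for TRIM67 and -0.45 to 0.19 for MID1. With siMCT4 library 3 alone they were TRIM3 0.12, TRIM32 -0.0275, TRIM46 -0.16, TRIM54 -0.0774, TRIM67 0.0547, TRIM16L -0.0158 and UBE2E1 -0.11. With the GC correction they were TRIM67 0.0477 and TYK2 0.11, and with it and the block TRIM32 -0.00987 and TYK2 0.11.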

Other observations

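Other genes whose symbols begin with TRIM were outside the member rule by name. TRIM16L was counted 243, 224 and 234 times in the control libraries and 434, 408 and 250 times in siMCT4, so siMCT4 library 3 was close to the controls while libraries 1 and 2 were not (log2 change 0.58, adjusted p = 0.0971, edgeR). TRIM8-DT, a divergent transcript at TRIM8, was counted 60, 21 and 39 times in the control libraries and 7, 11 and 27 times in siMCT4 (log2 change -1.49, adjusted p = 0.0811). TRIML1, a TRIM-like gene, was counted 0, 0 and 7 times in the control libraries and 16, 12 and 17 times in siMCT4, and its log2 change of 2.54 had an adjusted p of 0.117. These were chosen after their values were seen, and none passed.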
